A study of Mus musculus with 18 samples.

Results

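The 37 genes of the mitochondrial chromosome were examined in ChIP-seq peak lists for the histone demethylase KDM2A and for dimethylated lysine 36 of histone H3 (H3K36me2). The genes were selected by position: every gene that GENCODE release M21 places on the mitochondrial chromosome, named MT in the lists, was a member, 37 of 55450 annotated genes. The set was taken up because KDM2A peaks were known to lie on this chromosome, so that the coverage of its genes as such is a description and carries no test, whereas WT and KO were not compared in choosing it. Splenic B cells came from Mir155-sufficient (WT) or Mir155-deficient (KO) C57BL/6 mice, Mir155 being the gene of the microRNA miR-155. B cells had been enriched by depleting CD43+, Ter119+ and CD4+ cells, stimulated with anti-CD40, anti-IgM F(ab')2 and IL-4 and kept for 2 days at 1% O2, a treatment shared by all groups. Each genotype had 3 libraries per antibody, with replicate 1 from a male and the others from females by the labels. Separate cultures for the 3 libraries were not described, so that p-values measure the spread between libraries only.

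Mitochondrial DNA is a small circle that is wrapped by the protein TFAM and not by histones. It encodes rRNAs and tRNAs for the mitochondrial ribosome and the core membrane subunits of respiratory complexes I, III and IV and of the ATP synthase (complex V), and both strands are transcribed into long precursors that are cut at the tRNAs. KDM2A removes methyl groups from H3K36me2 and carries a CXXC zinc finger that binds unmethylated CpG sites in nuclear DNA.

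All 6 KDM2A lists held 3 peaks on the mitochondrial chromosome, and none of the 6 H3K36me2 lists held a peak there. The KDM2A peaks lay over most of the circle. They left the same stretch around mt-Co2, mt-Atp8 and mt-Atp6, and a shorter stretch across mt-Nd4l and mt-Nd4, without a peak in every list. The 16299 bp of the chromosome were covered to 76.8%, 77.0% and 76.9% in the WT lists and to 75.9%, 76.3% and 76.8% in the KO lists. Of the nuclear chromosomes, chromosome 11 was the most covered in each KDM2A list, with 1.05% to 2.89%.

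The positions of the peaks are given in GRCm38, with the chromosome numbered as a line from 1 to 16299. In WT replicate 1 the first peak ran from 12 to 6571, the second from 9347 to 9895 and the third from 10861 to 16267. In WT replicate 2 they ran from 9 to 6582, from 9344 to 9918 and from 10867 to 16270. In WT replicate 3 they ran from 3 to 6575, from 9344 to 9912 and from 10884 to 16274. The edges of the WT peaks thus fell within 23 bp of one another, the widest spread being at the end of the second peak and the start of the third.

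In KO replicate 1 the first peak ran from 18 to 6539, the second from 9387 to 9889 and the third from 10908 to 16252. In KO replicate 2 they ran from 10 to 6560, from 9374 to 9892 and from 10897 to 16270. In KO replicate 3 they ran from 6 to 6569, from 9349 to 9909 and from 10880 to 16266. Each KO peak lay at nearly the same place as its WT counterpart, and across all 6 lists the largest spread of an edge was 47 bp, at the start of the third peak.

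**Figure D1:**
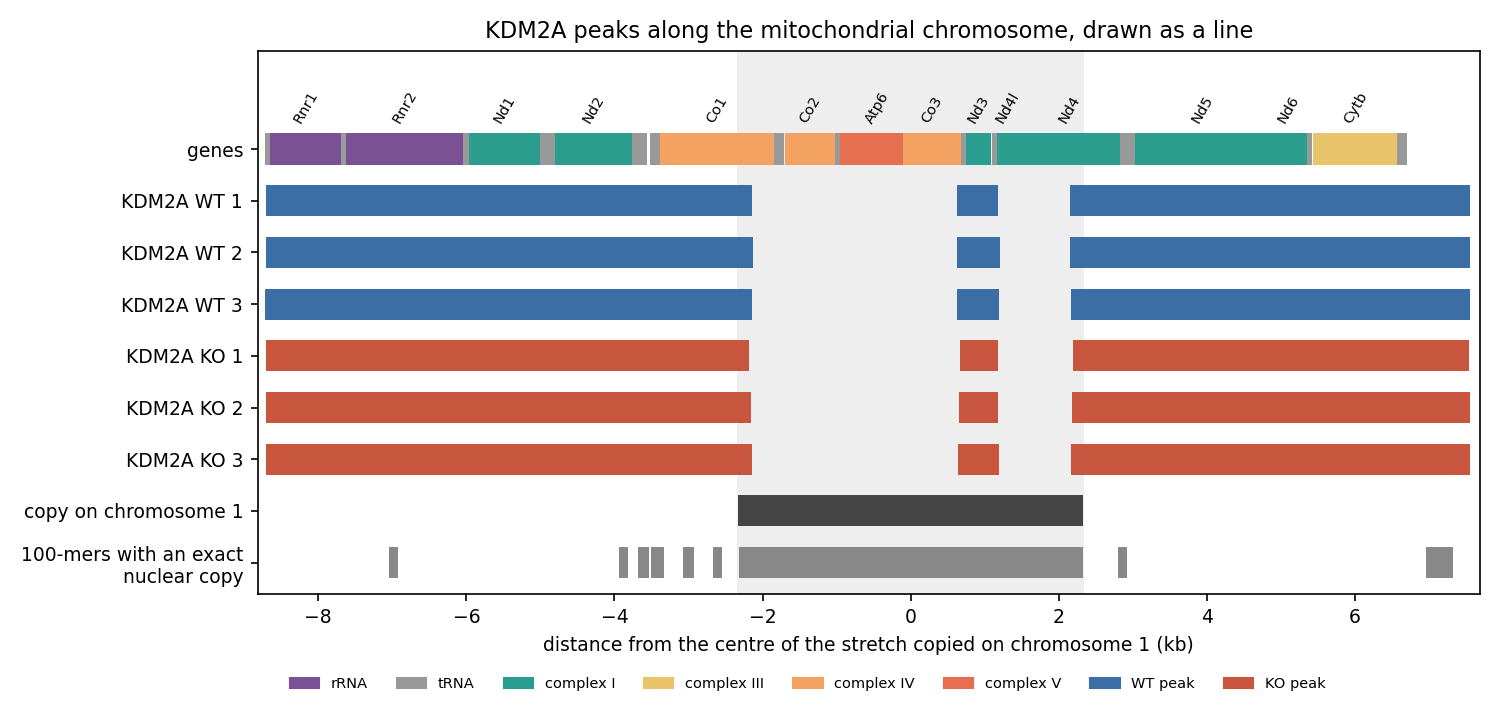
Genes, KDM2A peaks and nuclear copies along the mitochondrial chromosome, drawn as a line, with the x axis giving the distance in kb from the centre of the stretch copied on chromosome 1 (grey band). Blue bars are WT peaks and red bars KO peaks, 3 in each of the 6 lists, the dark bar is the chromosome 1 copy and the grey bars mark 100-base words with an exact nuclear copy. Both gaps between the peaks lie inside the band.

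Bases under a peak in all 6 lists added up to 12370 bp, or 75.9% of the chromosome. Another 199 bp lay under a peak in some lists only, all of it at peak edges. The 3730 bp under no peak in any list, 22.9% of the chromosome, fell into 4 stretches. The longest ran from 6583 to 9343 (2761 bp), from the end of mt-Co1 to near the end of mt-Co3, and the next from 9919 to 10860 (942 bp), within mt-Nd4l and mt-Nd4. The remaining stretches were the 2 bases at the start of the numbering and the 25 bases at its end, so that on the circle the third and the first peak were neighbours.

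Of the 37 genes, 26 were wholly covered in all 6 lists, 5 were covered in part and 6 lay under no peak in any list. The counts were identical in the 6 lists, with 26 genes wholly covered and 31 touched by at least 1 bp in each, so that no difference between genotypes existed to be tested. Among all 55450 genes, 12.6% were touched by a KDM2A peak in all 6 lists and 0.31% were wholly covered in all 6. Nothing about the members is read from these shares, since neighbouring genes share a peak and the set was taken up for its peaks.

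Both rRNA genes, mt-Rnr1 (70 to 1024, small ribosomal subunit) and mt-Rnr2 (1094 to 2675, large subunit), were covered to 100% in every list. Of the 7 complex I genes, which encode subunits of NADH dehydrogenase, 5 were covered to 100% in every list: mt-Nd1 (2751 to 3707) and mt-Nd2 (3914 to 4951) under the first peak, mt-Nd3 (9459 to 9806) under the second, and mt-Nd5 (11742 to 13565) and mt-Nd6 (13552 to 14070) under the third. The gene of cytochrome b, mt-Cytb (14145 to 15288), the complex III member, was likewise covered to 100% in every list. The second peak was thus built around a single whole protein gene, mt-Nd3, with the tRNA genes on either side of it.

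Complex I had 2 genes at the edges of the shorter gap. Coverage of mt-Nd4l (9877 to 10173) was 6.4%, 14.1% and 12.1% in WT, against 4.38%, 5.39% and 11.1% in KO. Coverage of mt-Nd4 (10167 to 11544) was 49.6%, 49.2% and 48.0% in WT, against 46.2%, 47.0% and 48.3% in KO. The genotypes overlapped for both genes. The 5′ side of mt-Nd4 lay in the gap and its 3′ side under the third peak.

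No complex IV gene was wholly covered. Coverage of mt-Co1 (5328 to 6872), the catalytic subunit of cytochrome c oxidase, was 80.5%, 81.2% and 80.8% in WT, against 78.4%, 79.8% and 80.4% in KO. Coverage of mt-Co3 (8607 to 9390) was 5.61%, 5.99% and 5.99% in WT, against 0.51%, 2.17% and 5.36% in KO. Every KO value of these 2 genes, out of 5 partly covered mitochondrial genes, was below every WT value, a pattern shown by 18.8% of the 6800 genes partly covered in all 6 lists. Each of these differences lay at 1 peak edge, the end of the first peak for mt-Co1 and the start of the second for mt-Co3. The remaining subunit gene, mt-Co2 (7013 to 7696), lay under no peak in any list.

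Both ATP synthase genes were without a peak in all 6 lists. They are mt-Atp8 (7766 to 7969) and mt-Atp6 (7927 to 8607), which overlap each other and encode membrane subunits of the enzyme. Complex V was the one class with no base under a KDM2A peak, and the 842 bp that its genes occupy lay in the longer gap.

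Of the 22 tRNA genes, 18 were wholly covered in all 6 lists. The phenylalanine tRNA gene mt-Tf (1 to 68) was covered to 83.8%, 88.2% and 97.1% in WT, against to 75.0%, 86.8% and 92.6% in KO, because the first peak started inside it, and the genotypes overlapped. The serine tRNA gene mt-Ts1 (6870 to 6938), the aspartate tRNA gene mt-Td (6942 to 7011) and the lysine tRNA gene mt-Tk (7700 to 7764) lay under no peak in any list. All 3 flank mt-Co2 in the longer gap. By strand, 8 of the 9 genes of the minus strand and 18 of the 28 genes of the plus strand were wholly covered, the minus-strand exception being mt-Ts1.

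**Figure D2:**
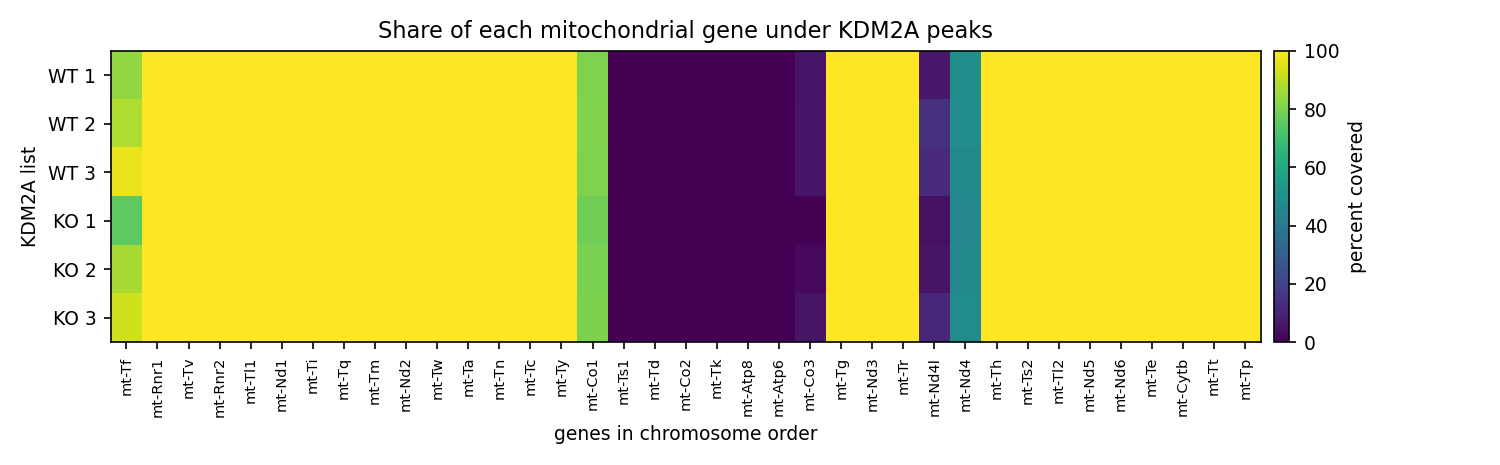
Percent of each of the 37 mitochondrial genes under KDM2A peaks, with genes in chromosome order on the x axis and the 6 lists on the y axis, and colour running from 0 to 100 percent. The 6 genes from mt-Ts1 to mt-Atp6 are at 0 in every list, 5 genes are partly covered and 26 are at 100.

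The noncoding control region (15423 to 16299), which holds the promoters and the origin of the leading strand, lay under the third peak up to the last 25 to 47 bases. Its sequence blocks annotated by RefSeq, the extended termination-associated sequences (ETAS) and the conserved sequence blocks (CSB), and the origin of the lagging strand, OL, which lies among tRNA genes under the first peak, were wholly covered in all 6 lists. They are shown because these are the elements of the circle that steer replication, and CpG sites are in capitals.
OL, 5160 to 5191, plus strand: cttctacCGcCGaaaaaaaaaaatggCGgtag
ETAS1, 15451 to 15509, plus strand: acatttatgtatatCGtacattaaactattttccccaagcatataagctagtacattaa
ETAS2, 15515 to 15558, plus strand: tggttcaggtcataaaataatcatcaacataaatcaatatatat
CSB1, 16035 to 16058, plus strand: aattattcatgcttgttagacata
CSB2, 16089 to 16104, plus strand: caaaccccccaccccc
CSB3, 16114 to 16131, plus strand: tgccaaaccccaaaaaca
OL held 3 CpG sites, ETAS1 held 1, and ETAS2 and the CSB blocks held none.

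CpG sites were counted because KDM2A binds them in nuclear DNA. The mitochondrial chromosome held 287 CpG sites, 1.76 per 100 bp, against 0.826 per 100 bp in the nuclear chromosomes. The stretches under a peak in all 6 lists held 1.78 CpG per 100 bp and the stretches under no peak 1.64. The longer gap alone held 45 sites, 1.63 per 100 bp, and the shorter gap 15 sites, 1.59 per 100 bp. The first covered stretch was above both, with 128 sites, 1.96 per 100 bp. The third covered stretch had the density of the longer gap (1.63), while the second covered stretch held 5 sites, 0.994 per 100 bp. The part of CpG density in where the peaks lay was not tested.

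Against the nuclear KDM2A peaks of the same list, the mitochondrial peaks were poor in G and C. Their GC content was 36.8% to 36.9% in the first peak, 31.4% to 32.7% in the second and 37.1% to 37.2% in the third, whereas the median of the nuclear peaks was 52.3% to 56.4% across lists. These values lay at or below the 1.7 percentile of the nuclear peaks in every list. The CpG density of the mitochondrial peaks lay between the 18.1 and the 56.5 percentile. Base composition is a property of the covered sequence, and its part in the peaks was not tested.

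The edges of both gaps were compared with nuclear copies of mitochondrial DNA. A search of the nuclear chromosomes of GRCm38 found 55 aligned stretches, some of them adjoining pieces of the same region. The longest lay at chr1:24611535-24616188 on the minus strand and matched bases 6390 to 11042 of the mitochondrial chromosome at 99.936% identity. GENCODE annotates 7 pseudogenes over this copy: Gm28439, Gm10222, Gm28438, Gm28437, Gm10925, Gm28661 and Gm29216. No KDM2A or H3K36me2 peak lay on the copy in any of the 12 lists. The longer gap and the shorter gap both lay wholly inside the copied stretch.

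The borders of the copied stretch are shown because the first peak ended, and the third began, just inside it. Bases identical in the chromosome 1 copy are in capitals, with the substituted base 6393 left in lower case, and the sequences are the plus strand of the mitochondrial chromosome in GRCm38.
Start of the copied stretch, 6350 to 6429: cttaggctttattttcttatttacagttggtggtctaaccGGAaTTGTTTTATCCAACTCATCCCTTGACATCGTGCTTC
End of the copied stretch, 11003 to 11082: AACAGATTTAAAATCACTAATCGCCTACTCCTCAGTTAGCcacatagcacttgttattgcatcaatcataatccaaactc
The first peak ended 149 to 192 bp beyond the first base of the copied stretch, and the third peak started 134 to 181 bp before its last base, over the 6 lists.

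The copy and the mitochondrial chromosome differed at 3 places, counted from base 1 of the mitochondrial chromosome with its base first. These were A6393T in mt-Co1, T9461C in mt-Nd3 and 1 extra A in the nuclear copy within the arginine tRNA gene mt-Tr, where a run of 8 A stood in the mitochondrial chromosome and a run of 9 A in the copy. The last 2 places are shown because the second peak lay over them, with the differing base or run in capitals.
Mitochondrial chromosome, 9441 to 9481, plus strand: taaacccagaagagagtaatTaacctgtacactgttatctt
Copy, chr1:24613097-24613137, minus strand: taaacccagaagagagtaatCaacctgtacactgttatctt
Mitochondrial chromosome, 9804 to 9844, plus strand: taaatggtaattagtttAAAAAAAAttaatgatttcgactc
Copy, chr1:24612733-24612774, minus strand: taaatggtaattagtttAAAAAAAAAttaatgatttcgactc
These 2 places were 363 bp apart. The second peak began 74 to 117 bp before the substitution and ended 65 to 94 bp after the extra base in the 6 lists, and its width averaged 564 ± 14 bp over the WT lists, against 528 ± 30 bp over the KO lists (SD, n = 3 per genotype).

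The differences divided the copied stretch into 3 runs of 100-base words that recur exactly in the nuclear genome, from 6394 to 9460 (3067 bp), from 9462 to 9824 (363 bp) and from 9825 to 11042 (1218 bp). The second run lay wholly under the second peak in every list, and the gaps lay inside the other runs. Peaks reached into the first run by 146 to 189 bp on one side and 74 to 117 bp on the other, and into the last run by 65 to 94 bp and 135 to 182 bp. Elsewhere on the chromosome there were 9 further runs of 116 to 242 bp, among them 15675 to 15916 in the control region, and all 9 lay wholly under peaks in all 6 lists. Long shared runs were thus without peaks except at their ends, and short ones were covered.

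Counted by words, 100% of the 100-base words centred in either gap had an exact nuclear copy. In the stretches under a peak in all 6 lists the share was 5.05% in the first, 60.4% in the second and 5.28% in the third, and it was 29.5% over the whole chromosome. With words of 50 bases the shares were 100% in both gaps and 13.5%, 80.3% and 12.4% in the covered stretches. Read length and the treatment of reads with more than 1 match were not given in the sources used here, and the part of the copy in the gaps was not tested.

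**Figure D3:**
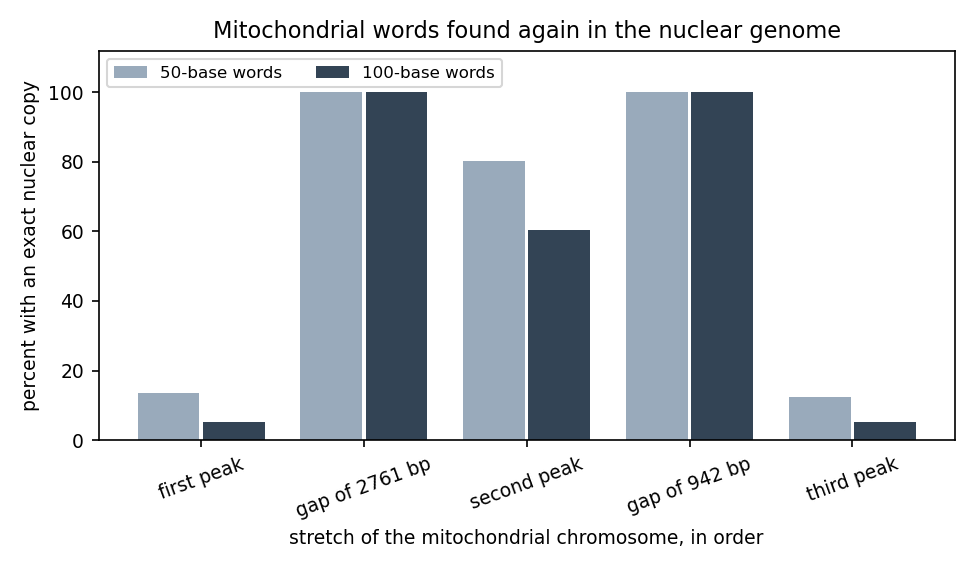
Percent of 50-base and 100-base words with an exact copy in the nuclear genome (y axis) for the 3 stretches under a peak in all 6 KDM2A lists and the 2 long gaps between them (x axis). Bars of both gaps reach 100 percent, and the second peak stands between them and the other peaks at 60.4% for 100-base words.

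The fold that MACS2 gives for a broad peak is an average over its whole length, relative to the local control. In the third peak the fold was 2.92, 3.33 and 3.00 in WT, against 2.39, 2.48 and 2.71 in KO. In the first peak it was 2.32, 2.44 and 2.44 in WT, against 1.88, 2.10 and 2.29 in KO. In the second peak it was 1.79, 1.92 and 1.93 in WT, against 1.65, 1.71 and 1.89 in KO. All KO libraries were below all WT libraries in the third and the first peak and overlapped with WT in the second. In each of the 6 lists the third peak had the highest fold and the second peak the lowest.

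The mean fold of the third peak, the strongest on the chromosome in each list, was 3.08 ± 0.22 in WT, against 2.53 ± 0.16 in KO (SD, n = 3 per genotype). The difference was −0.56, and an exact two-sided permutation test gave p = 0.1, the lowest that 3 against 3 libraries can reach. The first peak averaged 2.40 ± 0.07 in WT, against 2.09 ± 0.21 in KO (exact permutation test, p = 0.1, n = 3 per genotype). The second averaged 1.88 ± 0.08 in WT, against 1.75 ± 0.12 in KO (exact permutation test, p = 0.2, n = 3 per genotype). Over a family of 12 exact tests on folds, fold percentile, coverage and edges, the adjusted p was 0.171 for each test with p = 0.1, and no test passed 0.05. The family holds the third peak fold under 2 names, as highest fold and as peak fold. Exact tests on peak width, −log10 q and the percentile of each peak were left out of it. In the male libraries the third peak had 2.92 in WT, against 2.39 in KO, and among the female libraries alone the KO mean was lower by a difference of −0.57.

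**Figure D4:**
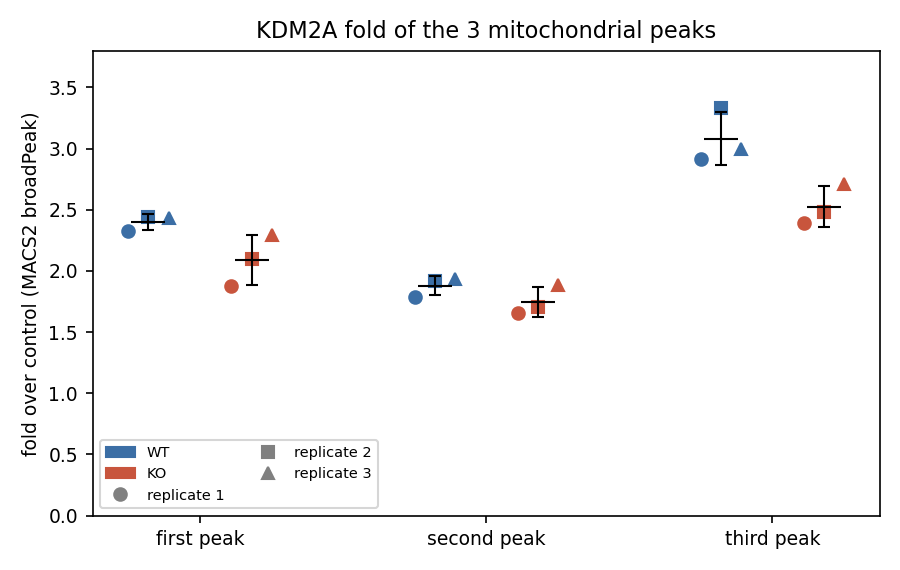
Fold over control of the 3 mitochondrial KDM2A peaks on a linear y axis, with the peaks on the x axis, WT in blue, KO in red and a marker shape for each replicate number. Black bars give the mean and SD of 3 libraries, 3.08 ± 0.22 for WT, against 2.53 ± 0.16 for KO, at the third peak.

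Whether the change in fold stood apart from the rest of the genome was examined at the 5250 intervals called in all 6 KDM2A lists, after each library was centred on its median log2 fold. The third peak changed by −0.23 (SE 0.09) on the log2 scale from WT to KO, with an unadjusted p of 0.020 and an adjusted p of 0.898 by limma. The first peak changed by −0.15 (SE 0.08, adjusted p = 0.898 by limma) and the second by −0.05 (SE 0.06, adjusted p = 0.965 by limma), and without KO replicate 1 these were −0.07 and −0.01. Among the female libraries alone the first peak changed by −0.07, the second by −0.01 and the third by −0.20. Without centring the changes were −0.20, −0.11 and −0.29 in that order. None passed the test, and limma called 0 of the 5250 intervals (0%). At an unadjusted p under 0.05, 281 intervals passed, of which 116 were lower in KO (2.21% of those tested). Without centring, 303 passed and 264 of them were lower in KO.

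With the centred fold every KO library was below every WT library in the third peak only, a pattern that 5.2% of all intervals showed. With the fold as deposited this held for the third and the first peak, and for 9.39% of all intervals. Among the 5250 intervals, 206 had a more negative change than the third mitochondrial peak, and 7 did when the fold was replaced by its percentile rank within the library. Only intervals called in every list enter these counts and shares, so a nuclear interval that lost its peak in KO was not counted. The fold at the 1 percentile of a list was 2.25 to 2.42, whereas mitochondrial peaks were called at folds down to 1.65.

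The place of the peaks within their own lists depended on the measure. By −log10 q the third peak had rank 2 in every list, with 439, 430 and 362 in WT, against 219, 292 and 298 in KO. The first peak had rank 3 in every list but KO replicate 1, where it had rank 7, and the second had rank 7 or 8. The peaks of rank 1 all lay near the start of chromosome 9, between 3023490 and 3024555, and further peaks of that region shared the top ranks. Peaks near the start of chromosome 9 also had the highest −log10 q of each of the 6 H3K36me2 lists, which had no mitochondrial peak.

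By fold, most mitochondrial peaks stood low. The third peak lay at the 79.8, 83.7 and 78.2 percentile of its list in WT and at the 1.14, 4.12 and 52.4 percentile in KO, with means of 80.6 ± 2.8 and 19.2 ± 28.8 (SD, n = 3 per genotype, exact permutation test, p = 0.1). The first peak lay between the 0.27 and the 3.9 percentile and the second between the 0.13 and the 0.26 percentile of all lists. The KO libraries were all below the WT libraries for the third peak but spread widely, KO replicate 3 lying far above the other KO libraries. By the percentile rank of the fold, 10.2% of the 5250 intervals had every KO library below every WT library.

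Folds within a list were crowded: its median was 2.61 to 2.87, close to the folds of the third peak, so that a small step in fold crossed a large part of the list. The KDM2A lists held 23372 to 29105 peaks in WT, against 15387 to 21705 in KO, no read depth came with them, and the part of list length and depth in the percentiles was not tested.

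**Figure D5:**
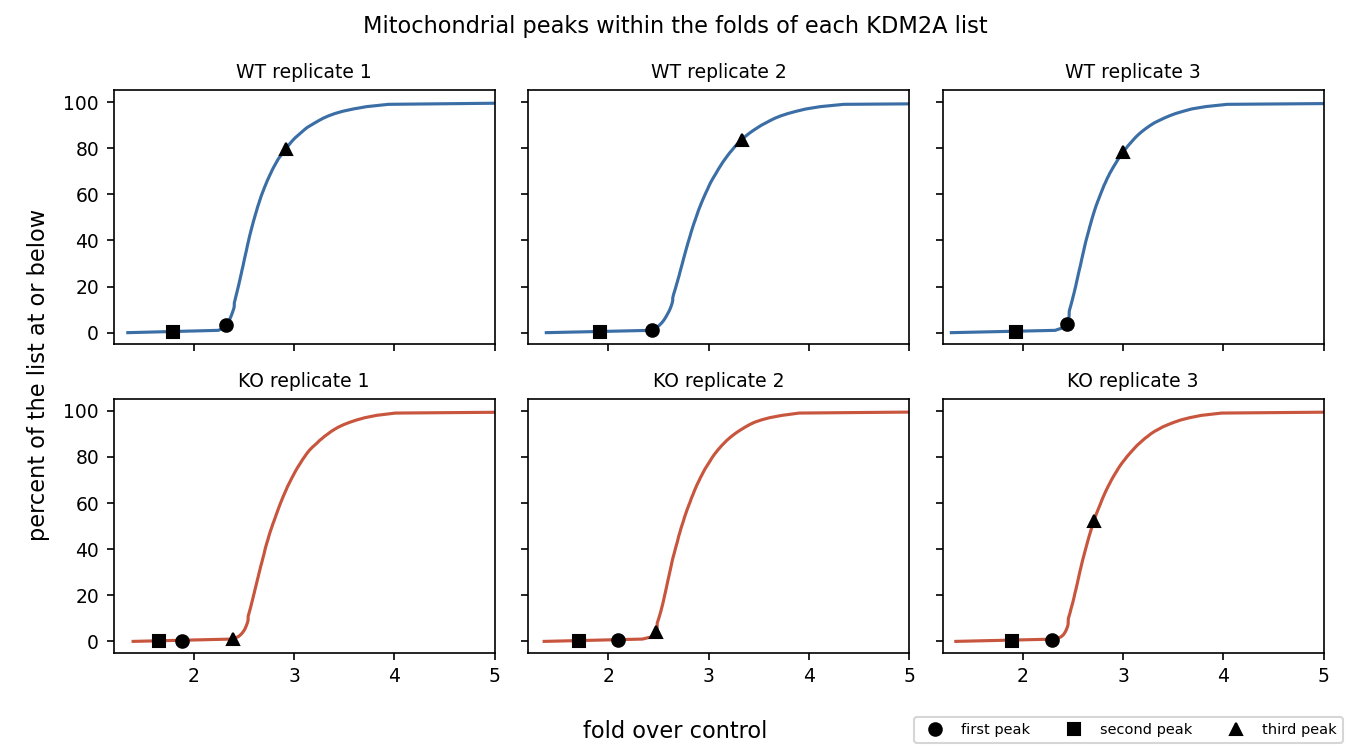
Cumulative share of the peaks of each KDM2A list (y axis, percent at or below) against the fold over control (x axis), with 1 panel per library and the 3 mitochondrial peaks as black symbols. The third peak sits on the upper part of the curve in the WT panels, at its foot in KO replicates 1 and 2 and at 52.4 percent in KO replicate 3.

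Coverage of the chromosome averaged 76.9% ± 0.1 in WT, against 76.3% ± 0.4 in KO (SD, n = 3 per genotype), a difference of −0.56 percentage points (exact two-sided permutation test, p = 0.1), and the 2 genotypes did not overlap. The same held for 16 of the 21 nuclear chromosomes (76.2%), as KO lists covered 0.433% to 0.715% of the genome, against 0.77% to 1.11% in WT. Without KO replicate 1 the difference was −0.34, and with every list cut to its 15387 peaks of highest fold it turned to 3.33. The mean of each of the 6 peak edges lay inward in KO. The end of the first peak averaged 6576 in WT and 6556 in KO and the start of the second 9345 in WT and 9370 in KO, without overlap between genotypes (exact permutation test, p = 0.1 each). Of all KDM2A peak edges in intervals with 1 peak in each list, 9.23% had every KO edge inward of every WT edge. For the other 4 edges the exact p was 0.2 to 0.5. KO thus had both inward mean edges and lower mean folds, and neither was tested as a part of the other.

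The nuclear genes of the same respiratory complexes gave a comparison by gene length. The 99 protein-coding genes with symbols of the Nduf, Uqcr, Cox and Atp5 families had a median of 1.65% to 5.41% of their length under KDM2A peaks across lists, 41 of them were touched in all 6 lists and 1 was wholly covered. The 13 mitochondrial protein genes had a median of 78.4% to 81.2%, 10 were touched in all 6 lists and 6 were wholly covered, beside the 12.6% and 0.31% of all genes. The nuclear genes are longer and carry introns, and were touched mostly over a part of their length.

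A peak within 2 kb of a TSS was then looked up for 23 nuclear genes. Their proteins are linked to the upkeep, copying or transcription of mitochondrial DNA or to the handling of its RNA. Among these genes 10 had a KDM2A peak in all 6 lists, 11 in 1 to 5 lists and 2, Mterf1a and Mterf1b, in none. Over all gene symbols, 13.1% had such a peak in all 6 lists. That share is over 55341 annotated symbols, pseudogenes and noncoding genes among them, and it was not matched for gene type or number of TSS. At Polg, the catalytic subunit of the mitochondrial DNA polymerase, the fold was 4.45, 3.56 and 3.04 in WT, against 2.84, 2.98 and 3.17 in KO. At Polg2, its accessory subunit, it was 4.19, 5.72 and 4.43 in WT, against 3.67, 3.36 and 3.99 in KO. At the helicase gene Twnk it was 4.14, 3.07 and 2.83 in WT, against 3.48, 2.74 and 3.57 in KO. The genotypes overlapped at Polg and Twnk. Polg2 was the 1 gene of the 10 with a peak in all 6 lists at which every KO value was below every WT value, against 9.39% of all intervals.

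Tfam, which packages mitochondrial DNA, had a TSS peak in 4 lists, with 3.81 and 3.67 in WT replicates 2 and 3 and 3.12 and 2.72 in KO replicates 1 and 3. Polrmt, the mitochondrial RNA polymerase, had one in 5 lists, with 2.58, 2.85 and 2.83 in WT and 2.95 and 2.71 in KO replicates 2 and 3. A list without a peak shows only that none passed the caller's threshold.

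The labelled cell type was looked up in the same way. Of the 5 B cell genes reported here (Cd79a, Cd79b, Ms4a1, Pax5 and Cd40), 4 had a KDM2A peak within 2 kb of a TSS in all 6 lists and Ms4a1 in 4 lists. Of all gene symbols 13.1% had one in all 6, a share not matched for gene type or number of TSS. Of the 5 genes of other blood cells reported here, none had one in all 6 lists, Cd8a and Csf1r had one in 1 list each, and 3 (Cd3e, Cd4 and Lyz2) had none in any.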

How the data were processed

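KDM2A and H3K36me2 ChIP-seq of WT and KO B cells gave 12 peak lists, 3 per group. The 6 input samples were not used here separately. The authors fixed cells with EGS and formaldehyde and aligned reads with BWA to GRCm38. Within nf-core/chipseq, MACS2 was run in its broad mode, which gave 1 deposited list per library. The deposited fold of a peak is a ratio over the local control, and which input served which library is not given in the sources used here. The deposited −log10 p and −log10 q values were used for ranks and a stricter threshold, and the smallest −log10 q was 1.00. Read filters were not given in the sources used here either. Read depth is unknown, so no counting interval was computed.

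Starts were converted to 1-based positions. Genes were taken from GENCODE M21 and sequence from GRCm38.p6, and all mitochondrial peaks lay within the length of its mitochondrial chromosome. Percent covered is the share of a gene's bases under peaks. Nuclear copies were found with blastn 2.17.0 (word size 24), and words of 50 and 100 bases were matched exactly on both strands. Single values were compared over libraries with two-sided exact permutation tests. Intervals called in all 6 lists were tested with limma 3.58.1 in R 4.3.3 on log2 fold, centred on each library's median. P-values were adjusted by the Benjamini-Hochberg method and called at 0.05. Coverage, permutation and limma code was tested on simulated data. The remaining steps ran in Python 3.11.15 (scipy 1.17.1, numpy 2.4.6, pandas 2.3.3).

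All 37 genes were accounted for. Values per list were given for rRNA and protein genes, and tRNA genes were named where not wholly covered in at least 1 KDM2A list. Polg, Polg2, Twnk, Tfam and Polrmt were named after their values were seen. The members and gene lists were chosen with earlier results of these data known. Alternatives were a −log10 q of at least 2, an equal number of peaks per list, bridged gaps, other coverage thresholds, length-weighted means, percentile ranks, 500 bp bins, a replicate block and leaving out each library. Added after seeing the data were the female libraries alone, no centring and the fold divided by the list median. Some genes of the planned cell type lists are not reported here.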

Additional observations from a re-analysis of the deposited data

How the results depend on the processing

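KDM2A coverage, fold, fold percentile and log2 fold, all lower in KO, stayed lower in 66 of 67 alternative values. Several settings could not change some of these values. Every mitochondrial peak passed the −log10 q threshold, both gaps exceeded the bridged length, and the replicate block alters the p-value only. Each 500 bp bin took the fold of the peak over it. The tally is therefore not a count of independent checks. The exact tests could not reach 0.05 under any setting, and limma's adjusted p stayed above 0.05 under each. H3K36me2 coverage and the count of wholly covered genes, with no difference to keep, stayed at 0 in 21 of 22. The exceptions came from cutting every list to its 15387 peaks of highest fold, which is the whole list of KO replicate 2. The difference in percent covered then became 3.33 and that in wholly covered genes 2.67, because 1 mitochondrial peak was left in each WT list, 0 in KO replicate 1, 3 in KO replicate 2 and 1 in KO replicate 3. Under this setting no mitochondrial interval was left for limma, and no highest fold or percentile could be given. With each library left out in turn, the log2 change of the third peak ranged from −0.27 to −0.19, that of the first from −0.21 to −0.07 and that of the second from −0.10 to −0.01. The smallest changes of the first and the second peak came without KO replicate 1. The difference in percent covered ranged from −0.78 to −0.34 and that in highest fold from −0.65 to −0.43. The difference in mean percentile of the third peak was −61.3 with all libraries, ranged from −77.9 (without KO replicate 3) to −52.3 (without KO replicate 1), and was −27.7 as a length-weighted mean over the mitochondrial peaks.

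The labels gave the genotypes the same replicate numbers, and deviations of same-numbered KDM2A libraries correlated at 0.0009, −0.016 and 0.0011. Differently numbered libraries correlated at −0.012 to 0.011. The check thus showed no pairing, and it could not exclude one, since it did not reflect the sexes either, which matched by number. With the replicate block the difference in percent covered was −0.56 and in highest fold −0.56 (exact sign-flip p = 0.25 each), and limma gave the third peak −0.23 with an adjusted p of 0.888 and again 0 calls. No test of H3K36me2 intervals on the chromosome was possible because no list held one. Unknown depth limits every comparison between lists.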
